A study of Mus musculus with 6 samples.

Results

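The mitochondrial carriers of the Slc25 family were examined in whole kidneys of C57BL/6 mice at postnatal day 60. All rows whose symbol was Slc25a followed by a number were taken, and members were those with at least 10 counts in 3 or more of the 6 libraries. This gave 43 of the 47 Slc25a symbols in the tables, which listed 24422 genes. RNA sequencing compared 3 controls, whose genotype label was wild type, with 3 TfR1KO;KspCre kidneys, labelled Tfr1f/f;KspCre, to ask which transcripts differed after deletion of the transferrin receptor TfR1. Every mouse received an iron sufficient diet (220 ppm). In the knockout group exons of Tfrc, which encodes TfR1, carry flanking recombination sites, and the Cre recombinase is driven by the Ksp-cadherin promoter, which is active in the distal nephron and collecting duct and not throughout the kidney. The labels give Cre and the floxed allele to the same group, so that effects of Cre itself and of the deletion cannot be told apart.

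Most Slc25 proteins span the inner mitochondrial membrane and exchange metabolites, nucleotides, cofactors and ions between cytosol and matrix, while a few, such as Slc25a17 of the peroxisome and Slc25a46 of the outer mitochondrial membrane, sit elsewhere. The mitoferrins Slc25a37 and Slc25a28 bring iron into the matrix, where it is built into heme and iron-sulfur clusters. Proximal tubules and thick ascending limbs are among the segments of the kidney rich in mitochondria, since their solute transport depends on oxidative ATP production.

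In bulk tissue, fewer cells of a type and less RNA per cell cannot be told apart. Total counts ranged from 18036845 to 21001341 in controls and from 11501053 to 19576330 in knockouts. Tfrc itself, at 62.0 to 167.9 CPM in controls and 40.6 to 214.4 CPM in knockouts, did not separate the groups, and knockout 1 held the highest value. CPM here is the count as a rate of the library's TMM-normalised total. Libraries were not evenly spread: the median carrier lay -0.33 on the log2 scale from the control mean in knockout 1, but -0.85 and -0.78 in knockouts 2 and 3. Control 2 held 52 counts of Xist and 3980 of the Y-linked genes Ddx3y, Eif2s3y, Kdm5d and Uty together, whereas the other libraries held 10458 to 23845 of Xist and 3 to 5 of the Y-linked genes. No knockout shared the pattern of control 2, so sex-linked transcripts were not balanced between the groups. The labels give no sex. Markers of kidney segments were present in all libraries. The 12 proximal tubule markers summed to 19251 to 47616 CPM in controls and 2825 to 8522 CPM in knockouts. At an adjusted p under 0.05 (edgeR), 9 of the 12 were called lower, against 6.64% of all genes tested. Of the 6 thick ascending limb and 5 collecting duct markers 0 were called, and 1 of 4 distal convoluted tubule markers was lower (Pvalb). A missing call does not show equal levels. Thick ascending limb markers summed to 4343 to 9938 CPM in controls and to 6653, 1070 and 1823 CPM in knockouts 1 to 3. The median log2 fold change of this list was -0.82. By contrast, 5 of 7 macrophage and lymphocyte markers and 3 of 5 fibroblast markers were called higher, against 10.6% of all genes tested. The macrophage and lymphocyte sums were 155.1 to 164.9 CPM in controls and 381.8 to 1394 CPM in knockouts. Fibroblast sums were 238.9 to 402.8 and 734.1 to 3021 CPM. The part of these segments and cell types in the carrier results was not tested.

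Of the 42 members tested, 12 were called lower and 1 higher (edgeR's quasi-likelihood test, adjusted p under 0.05 over all 15171 genes tested). Those called lower were 28.6% of the tested members, where 6.64% of all genes tested were called lower. Genes called higher made up 10.6% of all genes tested, and 1 of the 42 members was called higher. The log2 fold change was below 0 for 36 of 42 members, against 48.5% of all genes, and its median was -0.63, against 0.02 over all genes. For 25 members every knockout lay below every control, which is 59.5% of those tested and compares with 22.2% of all genes. In 3 members (Slc25a24, Slc25a43 and Slc25a53) every knockout lay above every control, as in 23.8% of all genes. In either direction, 66.7% of the members and 46.0% of all genes did not overlap. At an unadjusted p under 0.05 there were 24 members, beside 38.6% of all genes. The largest fall was that of Slc25a21 and the only called rise was that of Slc25a24.

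**Figure D1:**
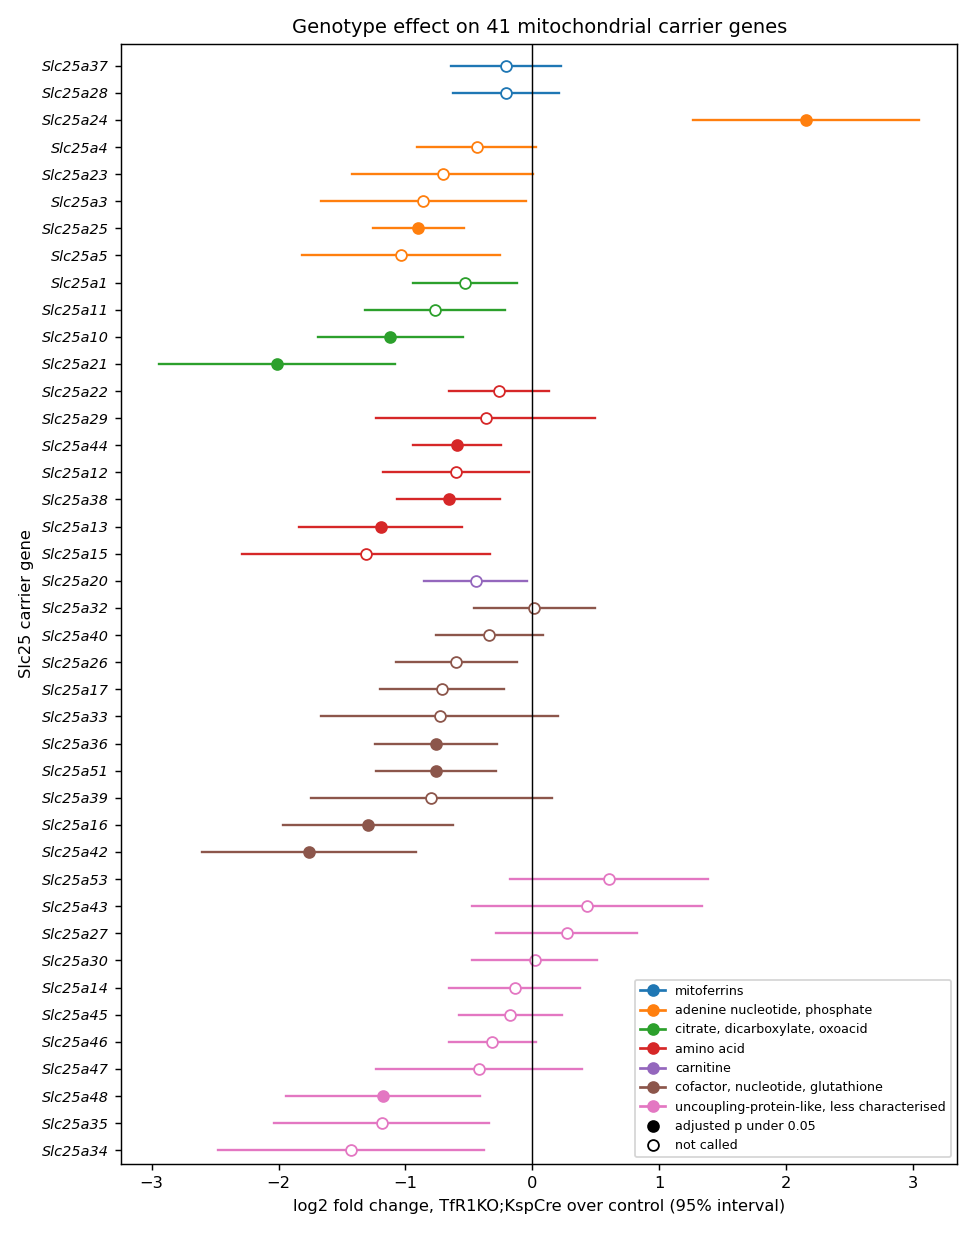
Log2 fold change of TfR1KO;KspCre over control (x axis) for 41 tested carriers (y axis), coloured by substrate group, with 95% intervals from the quasi-likelihood fit. Filled points are 12 called members, of which Slc25a24 alone lies to the right of 0.

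These calls rested on few libraries. No member was called by edgeR when any 1 of the 3 controls was left out, nor was any other gene, although 19 to 21 members (44.2% to 50%) then had an unadjusted p under 0.05, beside 27.4% to 30.98% of all genes. The count was also 0 without knockout 2 and without knockout 3 (18 and 20 members at an unadjusted p under 0.05, or 41.9% and 46.5%, beside 29.9% and 28.9% of all genes), where 73 and 2 of all genes were called. Without knockout 1 it was 28 (65.1% of the members tested), where 34.4% of all genes were called. With the Xist to Y-linked ratio as a covariate it was 0, as over all genes, with 21 members (50%) at an unadjusted p under 0.05, beside 27.8% of all genes. With library size alone as the scaling, 7 members (16.7%) were called, beside 24.04% of all genes. All 13 called members kept their direction in each of these fits. DESeq2's Wald test on all 6 libraries called 22 members (52.4%), 21 of them lower, where it called 32.3% of all genes.

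Slc25a24 was the member called higher, Slc25a42 had one of the largest falls, and the mitoferrin Slc25a28 was not called. The 150 bases upstream of their start sites are shown so that the promoters of members with different responses can be set side by side. Sequences are from RefSeq promoter windows on GRCm38.p6, and each is written 5′ to 3′ on the strand of the gene. Capitals mark GC boxes (GGGCGG) and CCAAT boxes (CCAAT), each on either strand. The windows are chr3:109122999-109123148 (plus strand) for Slc25a24, chr8:70212282-70212431 (minus strand) for Slc25a42 and chr19:43674882-43675031 (minus strand) for Slc25a28.
Slc25a24: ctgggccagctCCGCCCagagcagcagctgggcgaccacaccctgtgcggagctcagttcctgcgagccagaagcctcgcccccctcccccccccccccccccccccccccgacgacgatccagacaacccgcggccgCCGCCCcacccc
Slc25a42: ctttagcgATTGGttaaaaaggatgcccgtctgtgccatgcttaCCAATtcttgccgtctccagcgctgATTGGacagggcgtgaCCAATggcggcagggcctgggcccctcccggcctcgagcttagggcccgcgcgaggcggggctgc
Slc25a28: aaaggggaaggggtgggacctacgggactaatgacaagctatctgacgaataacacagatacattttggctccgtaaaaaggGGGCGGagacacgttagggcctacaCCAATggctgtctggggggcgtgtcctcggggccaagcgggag

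Slc25a24 carried 2 GC boxes and 0 CCAAT boxes, Slc25a42 carried 0 and 4, and Slc25a28 carried 1 of each. Of 44 promoter windows found for 34 of the 43 members, 59.1% held a GC box and 38.6% a CCAAT box in these 150 bases, against 28.6% and 24.5% of all 32851 windows. Slc25a37 was among the members with no window. Motifs of mitochondrial and hypoxia regulators were then searched on both strands of the whole 300-base windows. The palindromic NRF1 motif, the estrogen-related receptor motif TCAAGGTCA and the direct repeat with a spacer of 1 base read by HNF4A and PPARA were in 0 of 44 member windows and in 0.971%, 0.423% and 0.0396% of all windows. The ETS motif CCGGAAG was in 13.6% of member windows (8.86% of all), the E-box CACGTG in 15.9% (7.15%) and the AP-1 motif TGANTCA in 4.55% (7.81%). The hypoxia response core ACGTG, which lies within the E-box, was in 27.3% of member windows and 19.6% of all.

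Neither mitoferrin was called. Slc25a37 (mitoferrin 1; chromosome 14, 69859908 to 69903160, minus strand, mm9) stood at 46.7, 56.6 and 71.3 CPM in controls and 45.7, 56.0 and 49.5 CPM in knockouts. The groups overlapped, and knockout 1 lay just below the lowest control. Its log2 fold change was -0.21 (SE 0.18; edgeR, adjusted p 0.437), with a 95% interval of -0.64 to 0.23. Slc25a28 (mitoferrin 2; chromosome 19, 43738312 to 43749371, minus strand) stood at 47.8, 50.4 and 54.0 CPM in controls and 44.6, 34.6 and 52.7 CPM in knockouts. Knockouts 1 and 2 lay below the controls and knockout 3 among them. The log2 fold change was -0.21 (SE 0.18; edgeR, adjusted p 0.414), with an interval of -0.62 to 0.21. With library size alone as the scaling both turned slightly positive, to 0.07 and 0.06. The intervals reached well below 0, so equal levels in the groups were not shown. Per kilobase of transcript, Slc25a28 was at 33.5 ± 2.04 CPM (SD, n = 3) and Slc25a37 at 14.0 ± 2.97 CPM (SD, n = 3) in controls. Slc25a37 made up 53.1% ± 3.74 of the counts of the pair in controls and 53.6% ± 7.18 in knockouts (SD, n = 3 each; exact permutation test, two-sided, p = 0.9; adjusted p 0.9).

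The mitoferrins took a larger share of family counts in 2 of the knockouts. They made up 1.51%, 1.59% and 1.90% of all Slc25 member counts in controls 1 to 3. In knockouts 1 to 3 the shares were 1.77%, 2.97% and 3.43%. Knockout 1 lay within the control range and the other knockouts above it (difference 1.05 percentage points; exact permutation test, two-sided, p = 0.2, where 0.1 is the smallest value that 3 against 3 allows). Shares of this kind do not depend on the scaling of libraries. A total of 6 ratios were computed, chosen with the values known, so their tests add no separate evidence. The Benjamini-Hochberg adjusted p was 0.3 here.

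**Figure D2:**
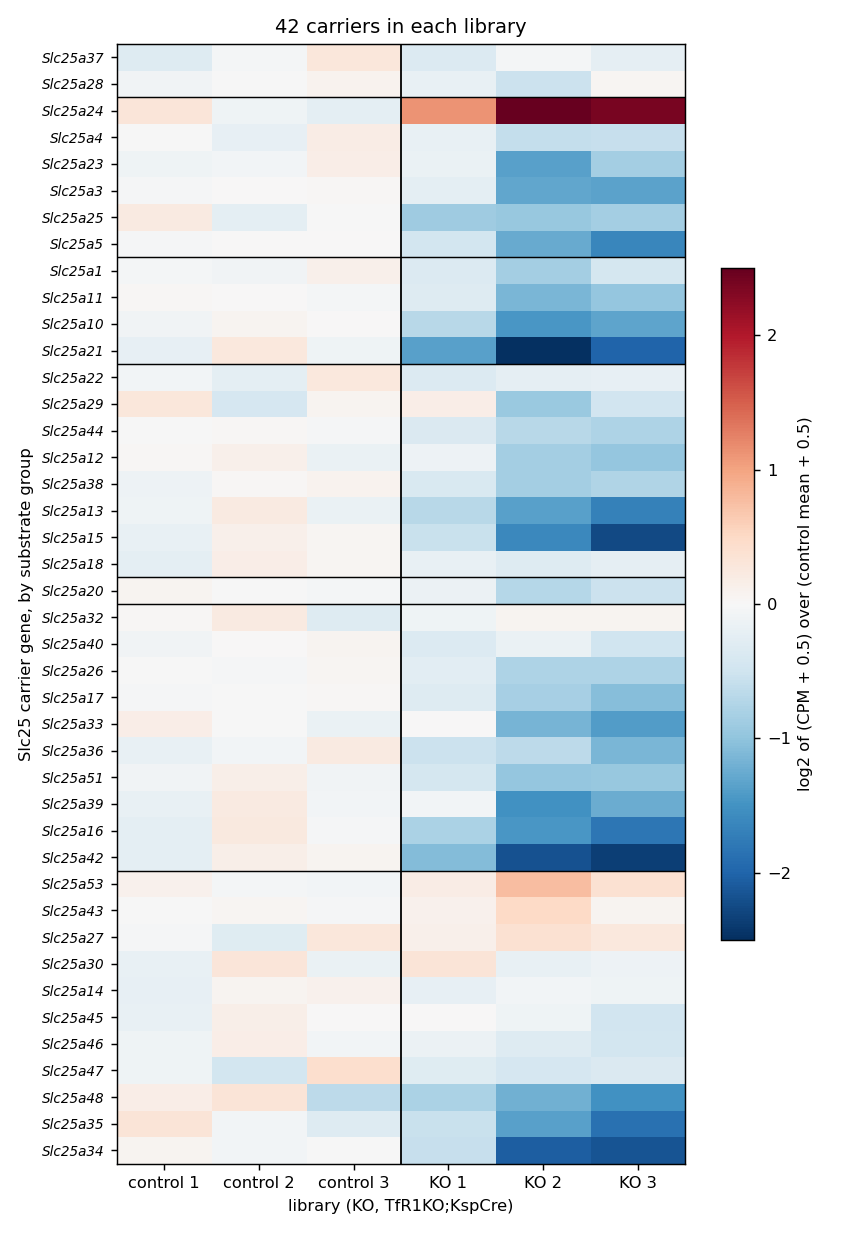
Each of 42 carriers (rows, ordered by substrate group) in each library (columns), as the log2 of its CPM plus 0.5 over the control mean plus 0.5. Knockouts 2 and 3 are blue (lower) for most rows, knockout 1 is paler, and Slc25a24 is red (higher) in the 3 knockouts.

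Carriers of adenine nucleotides and phosphate supply the ATP synthase and export its product. Slc25a5 (ANT2; chromosome X, 34335646 to 34338802, plus strand), an ADP/ATP exchanger, stood first of all members at 936.2 ± 11.2 CPM per kilobase in controls. The phosphate carrier Slc25a3 came second at 665.5 ± 14.2 CPM per kilobase (SD, n = 3 each). These 2 kept their places in knockouts, at 458 ± 197.7 and 367.3 ± 171.8 CPM per kilobase. Not scaled by length, Slc25a5 was at 1145, 1169 and 1169 CPM in controls and at 843.5, 486.0 and 374.1 CPM in knockouts. All knockouts were below all controls, but they differed among themselves by far more than the controls did. The log2 fold change of -1.03 (SE 0.33) was not called (edgeR, adjusted p 0.0688). Slc25a3 was at 1046, 1084 and 1088 CPM in controls and 911.7, 437.5 and 426.9 CPM in knockouts (log2 fold change -0.86, SE 0.34, adjusted p 0.113). Without knockout 1 both were called, at -1.44 and -1.32, in a fit that called 34.4% of all genes. No member was called when any other single library was left out.

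Slc25a4 (ANT1), the other main ADP/ATP exchanger, was at 360.1 to 469.7 CPM in controls and 275.3 to 362.3 CPM in knockouts, and the groups overlapped (log2 fold change -0.44, SE 0.20, adjusted p 0.152). As a share of the pair Slc25a4 and Slc25a5, Slc25a4 held 26.5%, 23.6% and 28.7% of counts in controls. It held 30.05%, 36.2% and 42.7% in knockouts. Every knockout lay above every control in this share (26.2% ± 2.57 against 36.3% ± 6.35, SD, n = 3 each; exact permutation test, p = 0.1, the smallest possible; adjusted p 0.2). Together Slc25a3, Slc25a4 and Slc25a5 made up 40.6% ± 1.56 of member counts in controls and 39.0% ± 2.61 in knockouts (SD, n = 3 each; exact permutation test, p = 0.6; adjusted p 0.72).

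Slc25a23, Slc25a24 and Slc25a25 are calcium-regulated carriers that exchange ATP-Mg for phosphate and so set the adenine nucleotide content of the matrix. Slc25a24 (chromosome 3, 108926067 to 108971375, plus strand) was at 15.5, 11.5 and 10.6 CPM in controls and rose to 27.97, 73.6 and 66.8 CPM in knockouts. All knockouts exceeded all controls, and knockout 1 rose the least. The log2 fold change was 2.16 (SE 0.38; edgeR, adjusted p 0.0286), a 4.47-fold rise, and stayed between 1.91 and 2.48 when single libraries were left out. Slc25a25 (chromosome 2, 32270007 to 32306965, minus strand) moved the other way, from 116.4, 84.1 and 99.8 CPM to 53.6, 51.9 and 55.5 CPM. It was the member with the smallest adjusted p (log2 fold change -0.90, SE 0.15, adjusted p 0.0280) and the knockouts were close to each other. Exons of Slc25a25 overlap those of Naif1 on the opposite strand, and the kit does not keep strand. Slc25a23 was at 163.2, 167.5 and 197.2 CPM in controls and 157.7, 68.05 and 97.5 CPM in knockouts and was not called (log2 fold change -0.71, SE 0.30, adjusted p 0.133).

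Within these ATP-Mg/phosphate carriers, Slc25a24 held 5.24%, 4.38% and 3.44% of their counts in controls 1 to 3. Its share in knockouts 1 to 3 was 11.7% (Wilson 95% interval 10.8% to 12.6%), 38.0% (36.5% to 39.6%) and 30.4% (28.7% to 32.1%). The lowest knockout was above the highest control, whose interval ended at 5.84% (exact permutation test, p = 0.1, the smallest possible; adjusted p 0.2). This share was chosen with the values of its genes known, so the test adds no separate evidence. The intervals cover counting error only, not the spread between mice. Knockout 2, which had the highest Slc25a24, also had the highest sum of the macrophage and lymphocyte markers, 1394 CPM, against 492.7 CPM in knockout 3 and 381.8 CPM in knockout 1. The fibroblast sums were 2850, 3021 and 734.1 CPM in knockouts 2, 3 and 1. The part of either cell type in the rise of Slc25a24 was not tested.

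**Figure D3:**
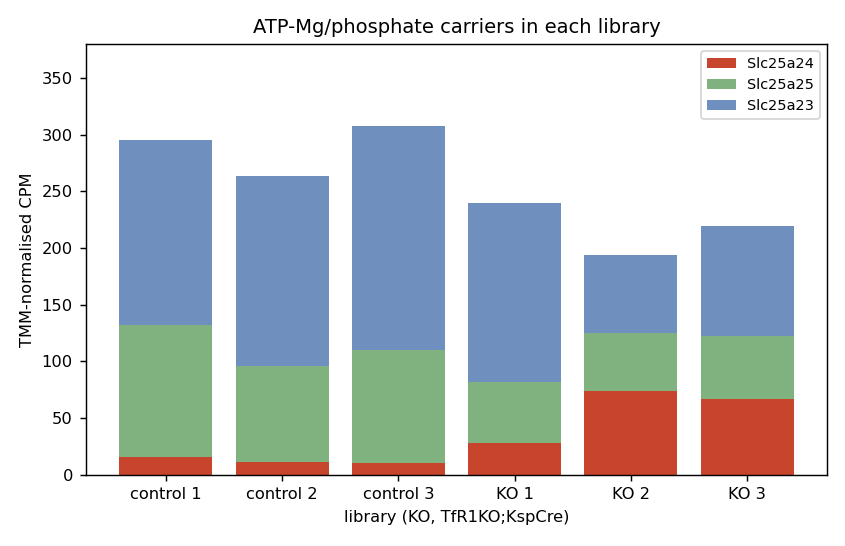
Stacked TMM-normalised CPM of Slc25a24, Slc25a25 and Slc25a23 (y axis) in each library (x axis). The Slc25a24 segment is 10.6 to 15.5 CPM high in controls and 27.97 to 73.6 CPM in knockouts, while the Slc25a25 segment is 51.9 to 55.5 CPM high in knockouts and at least 84.1 CPM in controls, and that of Slc25a23 is 157.7 CPM in knockout 1, 68.05 CPM in knockout 2 and 97.5 CPM in knockout 3.

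Citrate, dicarboxylate and oxoacid carriers link the citric acid cycle to the cytosol. All 4 had each knockout below each control (22.2% of all genes), and 2 of 4 were called lower (6.64% of all genes). Slc25a21, the oxodicarboxylate carrier of lysine and tryptophan breakdown (chromosome 12, 57813621 to 58298459, minus strand), fell from 18.2, 25.4 and 19.5 CPM to 7.95, 2.76 and 4.90 CPM. This was the largest fall of the family, to 24.8% of the control level (log2 fold change -2.01, SE 0.39; edgeR, adjusted p 0.0305). Its exons overlap those of Pax9 on the opposite strand. Slc25a10, the dicarboxylate carrier that exchanges malate and succinate for phosphate (chromosome 11, 120353154 to 120360501, plus strand), fell from 443.6, 497.1 and 475.3 CPM to 291.6, 171.5 and 188.8 CPM. At 233.3 ± 13.3 CPM per kilobase in controls it ranked 4 in the family, and its log2 fold change was -1.12 (SE 0.24, adjusted p 0.0329). The oxoglutarate carrier Slc25a11 of the malate-aspartate shuttle (-0.77, SE 0.23, adjusted p 0.0612) and the citrate carrier Slc25a1 (-0.53, SE 0.17, adjusted p 0.0723) were not called.

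Of 7 amino acid carriers tested, 3 were called lower (42.9%, against 6.64% of all genes) and none higher, and the log2 fold changes ran from -1.31 to -0.26. Slc25a13 (citrin; chromosome 6, 5991219 to 6167173, minus strand) exchanges aspartate for glutamate and fell from 122.3, 154.3 and 117.3 CPM to 80.6, 50.6 and 40.5 CPM (log2 fold change -1.20, SE 0.27; edgeR, adjusted p 0.0355). Its paralogue Slc25a12 (aralar) had a value of -0.60 (SE 0.24) and was not called (adjusted p 0.118). Slc25a13 held 52.2% to 56.3% of the counts of this pair in controls and 41.9% to 45.5% in knockouts, and these ranges did not overlap (exact permutation test, p = 0.1, the smallest possible; adjusted p 0.2). The glycine carrier Slc25a38, which serves heme synthesis, fell from 32.5, 36.7 and 37.9 CPM to 27.3, 19.6 and 20.9 CPM (-0.66, SE 0.17, adjusted p 0.0442). Slc25a44, a carrier of branched-chain amino acids, was at 64.5, 66.4 and 64.1 CPM in controls and 50.7, 40.1 and 38.1 CPM in knockouts (-0.59, SE 0.15, adjusted p 0.0403). The controls of this gene lay close together, with an SD of 1.22 CPM. The ornithine carrier Slc25a15 had the lowest fold change of the group but was not called, with 175.9, 219.3 and 207.2 CPM against 136.5, 65.0 and 41.7 CPM (-1.31, SE 0.41, adjusted p 0.0670). Without knockout 1 its value was -1.92 and it was called (edgeR, adjusted p 0.00356), as were 34.4% of all genes. It was not called when any other single library was left out. Slc25a29, a carrier of basic amino acids, had overlapping groups (-0.37, SE 0.36). Slc25a18, a glutamate carrier, had 9 to 13 counts in controls and 6 to 10 in knockouts and was below the filter of the test.

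Of 11 carriers of cofactors, nucleotides and glutathione 5 were called lower (45.5%, against 6.64% of all genes) and none higher. Slc25a42, which imports coenzyme A (chromosome 8, 72708239 to 72736204, minus strand), fell from 134.8, 177.7 and 169.0 CPM to 75.9, 35.2 and 30.9 CPM, or to 29.5% of the control level (log2 fold change -1.76, SE 0.36; edgeR, adjusted p 0.0316). Slc25a16, also linked to coenzyme A, fell from 122.8, 172.4 and 142.8 CPM to 84.0, 53.1 and 41.3 CPM (-1.29, SE 0.28, adjusted p 0.0332). In both, knockout 1 stood between the controls and the other knockouts. Slc25a51, the importer of NAD+, was at 264.1, 308.7 and 264.2 CPM in controls and 206.6, 142.2 and 144.9 CPM in knockouts (-0.76, SE 0.20, adjusted p 0.0452). Exons of Slc25a51 overlap another gene on the same strand, and those of Slc25a10 overlap a gene on the opposite strand. The pyrimidine nucleotide carrier Slc25a36 was at 104.2, 114.1 and 139.0 CPM in controls and 81.9, 75.5 and 53.6 CPM in knockouts (-0.76, SE 0.20, adjusted p 0.0463).

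The members of this group that follow were not called. Slc25a39, a carrier of glutathione and the third most abundant member per kilobase (386.2 ± 58.2 CPM per kilobase in controls, SD, n = 3), was at 574.1, 761.2 and 616.8 CPM in controls. Among knockouts it was at 623.7 CPM in knockout 1, within the control range, and at 226.5 and 275.1 CPM in knockouts 2 and 3 (-0.79, SE 0.40, adjusted p 0.187). Without knockout 1 its value was -1.38 and it was called, as were 34.4% of all genes. Its paralogue Slc25a40 was at 15.1 to 16.9 CPM in controls and 11.2 to 14.4 CPM in knockouts (-0.34, SE 0.18, adjusted p 0.201). Slc25a17 of the peroxisome (-0.71), Slc25a26, which carries S-adenosylmethionine (-0.60), and Slc25a33, another pyrimidine nucleotide carrier (-0.73), had adjusted p of 0.0552 to 0.214. The folate and FAD carrier Slc25a32 was at 15.1, 17.3 and 11.8 CPM in controls and 13.7, 15.6 and 15.6 CPM in knockouts (log2 fold change 0.018, 95% interval -0.46 to 0.49), and its sign turned between fits.

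The carnitine-acylcarnitine carrier Slc25a20, through which long-chain fatty acids reach beta-oxidation, was at 68.2, 64.5 and 63.3 CPM in controls and 59.2, 39.7 and 44.97 CPM in knockouts. The groups did not overlap, but the difference was not called (log2 fold change -0.45, SE 0.17; edgeR, adjusted p 0.104).

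**Figure D4:**
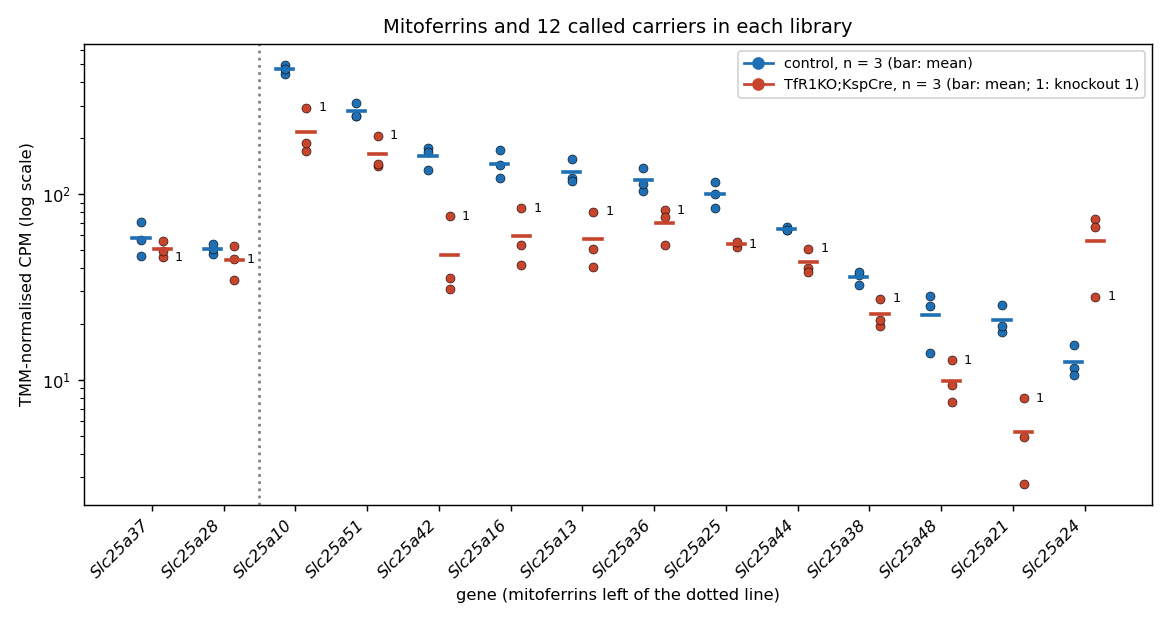
TMM-normalised CPM (y axis, log scale) of both mitoferrins and 12 called carriers (x axis) in each library, with group means as bars and knockout 1 marked 1. Points of the 2 groups overlap for the mitoferrins and are apart for these 12 carriers.

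Among 11 uncoupling-protein-like and less characterised carriers 1 was called, and it was lower. This is 9.09% and near the 6.64% of all genes called lower. Slc25a48 fell from 25.1, 28.3 and 14.0 CPM to 12.7, 9.43 and 7.58 CPM (log2 fold change -1.18, SE 0.32; edgeR, adjusted p 0.0491). Control 3 lay close to knockout 1 for this gene. Slc25a34 was at 37.0, 33.8 and 35.4 CPM in controls and 23.7, 8.08 and 7.51 CPM in knockouts (-1.43, SE 0.44, adjusted p 0.0646). Without knockout 1 its value was -2.19 and it was called (edgeR, adjusted p 0.00223), as were 34.4% of all genes. Slc25a35 had a value of -1.19 (SE 0.36, adjusted p 0.0606). Of the 100-base words of the Slc25a35 transcript, 92.5% had no exact copy elsewhere in the mm9 genome, the lowest share of all members.

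The remaining carriers of this group were not called. Slc25a53 was at 1.54, 1.35 and 1.32 CPM in controls and 1.67, 2.76 and 1.99 CPM in knockouts. Slc25a43 was at 0.547, 0.588 and 0.540 CPM in controls and 0.638, 1.004 and 0.613 CPM in knockouts. In both, every knockout was above every control, but levels were low and neither was called (log2 fold changes 0.60 and 0.43, adjusted p 0.217 and 0.433). Slc25a27 had a value of 0.27 (SE 0.23). Slc25a47 (-0.42, SE 0.34) overlapped between groups, and Slc25a46 (-0.31, SE 0.14) did not, but neither was called. Slc25a30 was at 35.1, 49.3 and 35.8 CPM in controls and 50.2, 35.0 and 36.5 CPM in knockouts, with a value of 0.019 (95% interval -0.47 to 0.51). Slc25a14 was at 6.62, 8.17 and 8.40 CPM in controls and 6.63, 7.33 and 7.12 CPM in knockouts (-0.14, SE 0.22). Slc25a45 was at 41.5, 52.5 and 48.0 CPM in controls and 47.8, 44.0 and 34.0 CPM in knockouts (-0.17, SE 0.17). In both the groups overlapped, as they did in the glutamate carrier Slc25a22. That gene was at 31.5, 27.6 and 39.7 CPM in controls and 25.96, 28 and 28.4 CPM in knockouts (-0.26, SE 0.17). The sign of Slc25a30, Slc25a14, Slc25a45 and Slc25a22 was not the same in all fits.

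Of the symbols outside the rule, Slc25a54 had 0 counts in all 6 libraries, where 3 counts would be 0.143 to 0.261 CPM on total counts. Slc25a2, Slc25a31 and Slc25a41 had at most 5 counts in any library.

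Knockout 1 was the highest of the 3 knockouts in 11 of the 12 members called lower and in 30 of the 36 members with a value below 0. The exception among the called members was Slc25a25. The same order was not counted over all genes, so it is not shown to be particular to the carriers. Leaving out knockout 1 raised the share of all genes called from 17.2% to 34.4%. Summed over the 43 members, family transcripts amounted to 6243, 6726 and 6592 CPM in controls and to 5114, 3054 and 2984 CPM in knockouts. They were thus at 78.4%, 46.8% and 45.8% of the control mean. Proximal tubule markers were at 26.5%, 9.23% and 8.77% of their control mean in the same order, and thick ascending limb markers at 85.3%, 13.7% and 23.4%. Kap, an androgen-regulated gene, made up much of the proximal tubule sum in control 2 (31293 of 47616 CPM), and the other 11 markers were at 44.4%, 18.2% and 14.9%. The mitoferrin sum stayed at 82.9%, 83.2% and 93.8%. The part of segment composition in the falls was not tested.

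**Figure D5:**
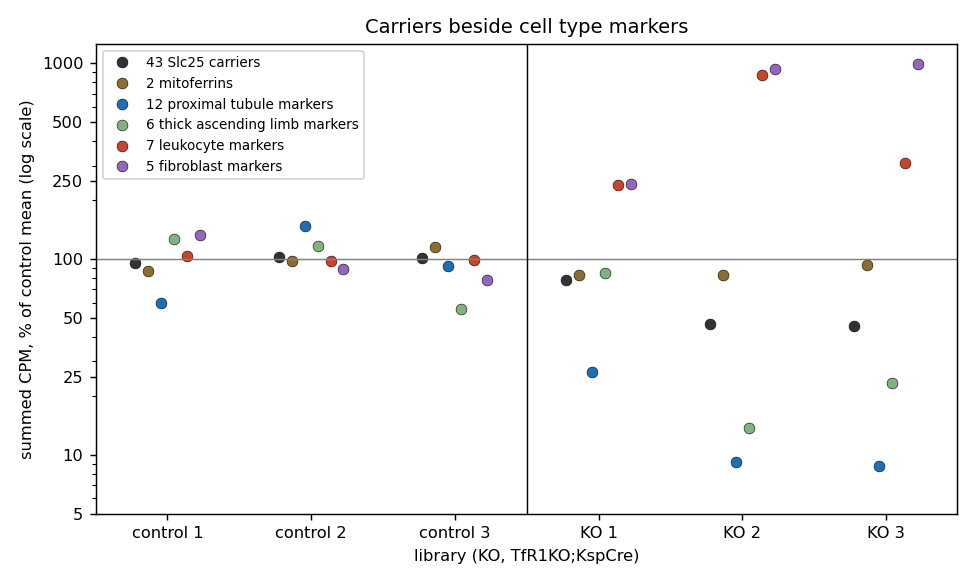
Summed CPM of the carriers, the mitoferrins and 4 marker lists in each library (x axis), as a percentage of the control mean (y axis, log scale). The carrier sum is at 78.4% in knockout 1 and at 46.8% and 45.8% in knockouts 2 and 3, proximal tubule markers lie below it in each knockout, and leukocyte and fibroblast markers lie at 239.9% or higher.

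Proteins with the carrier fold but other symbols did not move as one. Ucp2, an uncoupling protein common in leukocytes, rose from 120.8 to 161.0 CPM in controls to 247.6 to 325.2 CPM in knockouts (log2 fold change 1.01, SE 0.18; edgeR, adjusted p 0.0295). Ucp1, the uncoupling protein of brown fat, was at 53.0, 9.05 and 9.54 CPM in controls and 2.60, 1.46 and 0.613 CPM in knockouts and was called lower, together with Ucp3 (adjusted p 0.0361 and 0.0450, on fitted log2 fold changes of -3.90 and -2.497). Cidea, another gene of brown fat, was at 28.5, 10.5 and 6.96 CPM in controls and 2.51 to 4.81 CPM in knockouts and was called lower (-2.05, SE 0.57; edgeR, adjusted p 0.04998). Adipoq, an adipocyte hormone, was at 40.4, 13.8 and 15.8 CPM in controls and 5.69, 41.95 and 67.4 CPM in knockouts, and neither it nor Plin1 and Fabp4, genes of lipid storage, was called (0.71, -0.54 and -0.30). The summed adipose markers were at 190.8 to 459.3 CPM in controls and 116.3 to 310.7 CPM in knockouts. Control 1 was the highest for Ucp1, Ucp3 and Cidea, and the part of fat attached to the kidney was not tested. Mtch1 and Mtch2 were not called.

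Carriers reach the inner membrane through the TOM and TIM22 machinery. Of 11 import genes tested, 1 was called lower (Timm9, -0.79, SE 0.21, adjusted p 0.0466) and none higher, which is 9.09% and lies near the 6.64% of all genes called lower, with a median of -0.43. Among 17 other mitochondrial membrane transporters, 5 were called lower (29.4%) and none higher (median -0.75). They were the pyruvate carrier subunit Mpc1 (-1.39), the serine transporter Sfxn1 (-1.18), Sfxn2 (-1.05), and the ABC transporters Abcb6 (-0.91) and Abcb10 (-0.54), both tied to heme synthesis. Of 19 enzymes that work with substrates of the carriers 7 were called lower (36.8%) and none higher (median -0.79), among them the glycine cleavage genes Gldc (-1.30) and Gcsh (-1.36), the transhydrogenase Nnt (-1.08) and ferrochelatase Fech (-0.73). Regulators of mitochondrial and tubular gene expression gave 6 called lower of 9 (66.7%), with a median of -1.03. Ppargc1a was at 144.9 to 161.5 CPM in controls and 49.4 to 108.7 CPM in knockouts, and Hnf4a was at 629.1 to 862.6 and 154.6 to 392.5 CPM (-1.03 and -1.59, adjusted p 0.0492 and 0.0380). Nrf1 (0.19, SE 0.13) was not called. These calls, like those of the carriers, used all 6 libraries.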

How the data were processed

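Poly-A RNA of whole kidney was sequenced as single-end reads of 100 bases. The deposited files hold raw counts per gene, 1 table per group. The authors called bases with CASAVA 1.8.2, trimmed with Trimmomatic, aligned to mm9 with TopHat2 2.0.11, kept uniquely mapped reads and counted with HTSeq. The annotation and strand setting are not given in the sources used here, so values of overlapping genes are uncertain. Exons of 10 members overlap a gene on the opposite strand and 1 on the same strand.

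Counts were analysed with edgeR 4.0.16 (filterByExpr, minimum count 10, minimum total 15; TMM; glmQLFit in its legacy version and glmQLFTest) in R 4.3.3, with Benjamini-Hochberg adjustment over all 15171 genes tested. A member is called at an adjusted p under 0.05. The SE is the log2 fold change over the square root of F. Intervals of log2 fold changes are 95% intervals of the same fit, and those of shares are Wilson intervals, which cover counting error only. limma 3.58.1 (voom) and DESeq2 1.42.0 served as alternatives, beside other scalings and filters, a covariate, a replicate block and fits without single libraries. The test was tested on simulated data. No pair of replicates agreed within counting noise (chi-square per degree of freedom 55.9 to 131.6), so none was taken for a library deposited a second time. The series text calls the samples of a group biological replicates. Levels per kilobase used the longest protein-coding transcript in GENCODE M1 (mm9), found for all 43 members, 2 of them by an older symbol. Members given in every library are the mitoferrins, called members, the most abundant ones, the 5 largest falls and 3 largest rises without overlap, and those whose sign turned. Members and gene lists were chosen with earlier results of these data known. Of these, 1 member entered the fits and counts but its own result is not reported here.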

Additional observations from a re-analysis of the deposited data

How the results depend on the processing

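The number of members called was 13 (12 lower, 1 higher). Library size alone gave 7, of which 6 were lower, and called 24.04% of all genes, so that the share of members (16.7%) was below that of all genes. DESeq2's Wald test gave 22, of which 21 were lower, and called 32.3% of all genes. The fits without 1 library gave 0 to 28 in all, 0 to 27 lower and 0 to 1 higher, beside 0 to 5332 of all genes. With the Xist to Y-linked ratio as covariate the counts were 0, 0 and 0, and 0 of all genes were called. DESeq2 size factors, upper quartile scaling, both other filters (none, and a minimum of 10 counts in each library), limma-voom and the newer quasi-likelihood version gave 10 to 14 in all, beside 12.7% to 18.2% of all genes. The cause was not tested. Groups share replicate numbers 1 to 3. A replicate block gave 0 members called, 0 lower and 0 higher, with 26 (61.9%) at an unadjusted p under 0.05 beside 35.8% of all genes, and it called 0 of all 15171 genes. Deviations of control and knockout libraries with 1 number correlated at -0.13, 0.012 and 0.21, and the numbers were not taken as a pairing.

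The median log2 fold change of the members was -0.63, and -0.37 with library size alone, which moved the median of all genes from 0.021 to 0.29. In that fit Slc25a14 (0.14), Slc25a22 (0.0053), Slc25a28 (0.064), Slc25a37 (0.070) and Slc25a45 (0.098) turned positive. Slc25a30 turned to -0.0020 with DESeq2 size factors and -0.0017 with the Wald test, and ranged from -0.17 to 0.18 without 1 library. Slc25a32 turned to -0.00086 with the Wald test and ranged from -0.13 to 0.14 without 1 library. No other tested member changed sign in the 16 alternatives. Slc25a43 was below the filter of 10 counts in every library. Leaving out Kap, chosen after seeing the data, moved the proximal tubule sums from 26.5%, 9.23% and 8.77% to 44.4%, 18.2% and 14.9% of the control mean.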
